A study of Mus musculus with 16 samples.

Results

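The genes described here are 10 members of the BCL2 family that set whether a cell survives or dies through its mitochondria: Bcl2, Bcl2l1 (which encodes BCL-XL), Mcl1, the paralogs Bcl2a1a, Bcl2a1b and Bcl2a1d (A1), Bcl2l11 (BIM), Pmaip1 (NOXA), Bax and Bak1. They were chosen by symbol from the 13085 genes of the deposited table, and all 10 were at or above the filter used for testing, which kept 12782 genes. RNA was sequenced from monocytes of C57BL/6 mice, cultured for 6 or 24 h without stimulus or with IFN-γ plus 1 µg/mL MegaCD40L, a multimeric form of CD40 ligand. The mice were NFAM1+/+ or NFAM1-/-, bred by intercrossing heterozygotes, and the NFAM1-/- allele lacks exons 2 and 3 in every tissue after CRISPR deletion in C57BL/6NTac zygotes. Each of the 8 combinations of genotype, stimulus and time had 2 libraries, 16 in all, with 48295939 to 88514341 reads on the listed genes. The labels call the cells PBL monocytes, while the methods describe monocytes enriched from bone marrow, and the ages of the mice are not given in the sources used here. For IFN-γ, the labels and the RNAseq methods give unlike doses. The study used fewer mice of each genotype than there are libraries, so some libraries share a mouse. Which ones is not given in the sources used here, the tests treat the libraries as independent, and the p-values below measure only the spread between them.

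The genotype of some libraries is in doubt. For 4 libraries of the 24 h cultures (44, 46, 56 and 58) the title names one genotype and the tag the other. Groups follow the title, the genotypes are written as labelled, and the genotype results of the members at 24 h are also given by the tag and without these 4 libraries. Values of 4 libraries are listed with those titled NFAM1+/+ first. Comparisons of stimulus or time average over both genotypes. Nfam1 is counted over the whole gene, and the deletion leaves its other exons. Its level in unstimulated cells at 6 h was 432 and 408 counts-per-million (CPM) where the label was NFAM1+/+ and 299 and 321 CPM where it was NFAM1-/-, with limma adjusted p = 0.0514. In stimulated cells at 6 h it was 129 and 133 CPM against 134.6 and 127 CPM, so Nfam1 did not separate the labels there. By title at 24 h, Nfam1 was 463 and 495 CPM against 441 and 391 CPM without stimulus, and 271 and 252 CPM against 201 and 223 CPM with it, and neither difference passed the test (adjusted p = 0.348 and 0.0677). By the tag the Nfam1 differences were 0.04 and -0.02, and without the 4 libraries -0.17 and -0.32 on the log2 scale, none passing. Marker genes were read in the same libraries. All 8 monocyte markers were detected, and their summed level was 21870 to 24010 CPM without and 8202 to 10100 CPM with stimulus at 6 h, and 26260 to 30260 CPM against 8205 to 11560 CPM at 24 h. Most of this sum was Lyz2, except with stimulus at 6 h, where Lyz2 had a median of 3624 CPM and the sum 9048 CPM. Of the 8, 2 were higher with stimulus at both times, Ly6c2 and Fcgr1. All 10 neutrophil markers were detected at a summed 323 to 596 CPM at 6 h, and at 1123 to 1668 CPM without and 364 to 447 CPM with stimulus at 24 h. At 6 h Csf3r was the largest part, with medians of 225.5 CPM without and 231.4 CPM with stimulus. The medians there were 56.9 and 95.6 CPM for S100a9, 36.65 and 71.25 CPM for Ngp, 28.0 and 45.2 CPM for S100a8, and 36.3 and 9.33 CPM for Mmp8. Ly6g and Cxcr2 had medians of at most 1.16 CPM at 6 h. Without stimulus at 24 h the medians were 478 CPM for Csf3r, 210 for S100a9, 174 for Ngp, 155 for Mmp8 and 138 for Ltf. The B cell genes Ms4a1 and Pax5 and the T cell genes Cd3e, Cd3d, Cd3g and Trac are not among the listed genes, and the B cell sum of 40.7 to 551 CPM came mostly from Ighm and Igkc. The dendritic cell sum went from 68.5 to 90.7 CPM to 375 to 483 CPM with stimulus at 6 h, with Bst2, an interferon-induced gene, as its main part. The part of other cells in the results below was not tested, and in bulk RNA fewer cells of a type and less RNA per cell cannot be told apart.

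BCL2 family proteins act at the outer membrane of mitochondria. BAX and BAK1 form the pores that release cytochrome c, after which the apoptosome activates caspases. BCL2, BCL-XL, MCL1 and A1 hold them in check, and the BH3-only proteins BIM and NOXA bind and neutralize these guardians, NOXA mainly MCL1 and A1. In monocytes and neutrophils, which are short-lived cells, MCL1 and A1 are known as survival factors whose genes respond to inflammatory signals, and CD40 signals through NF-κB.

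The A1 paralogs carry some of the strongest responses below and are nearly identical, so their sequences bear on how far the counts can be told apart. On GRCm38 with GENCODE vM21, Bcl2a1a lies at chr9:88956900-88962419 and Bcl2a1b at chr9:89199209-89207827, both on the plus strand, and Bcl2a1d at chr9:88723285-88731914 on the minus strand. Each has a coding sequence of 516 bases, in which 12 positions vary among the 3 genes. Bcl2a1a and Bcl2a1b differ at 11 of these bases (97.9% identical), Bcl2a1a and Bcl2a1d at 7 (98.6%), and Bcl2a1b and Bcl2a1d at 6 (98.8%). The first 90 coding bases hold 6 of the 12 variable positions, which are in capitals here:
Bcl2a1a: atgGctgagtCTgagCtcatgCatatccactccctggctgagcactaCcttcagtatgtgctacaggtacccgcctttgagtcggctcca
Bcl2a1b: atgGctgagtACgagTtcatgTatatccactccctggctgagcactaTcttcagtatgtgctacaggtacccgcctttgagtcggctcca
Bcl2a1d: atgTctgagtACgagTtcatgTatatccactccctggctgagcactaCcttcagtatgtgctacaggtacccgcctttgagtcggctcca
Of all stretches of 101 bases, the length of 1 read, 43.1% of the Bcl2a1a transcript, 30.5% of Bcl2a1b and 54.0% of Bcl2a1d occur in another paralog as well. How the authors' counting assigned such reads is not given in the sources used here, so the 3 rows are uncertain one against another. The sum of their reads is given beside them. It lacks any shared reads that were left uncounted, so A1 levels may be too low against other genes. The 3 genes also share the bases before their starts. NFAM1 takes its name from activation of NFAT, so the NFAT core GGAAA was searched on both strands. It occurs once in the 250 bases before each RefSeq start of the 3 genes (GRCm38.p6), read as TTTCC in capitals below, at 76 to 72 bases upstream in Bcl2a1a and Bcl2a1d and at 120 to 116 bases upstream in Bcl2a1b, whose annotated start lies further downstream. The stretches are chr9:88956772-88956855 on the plus strand for Bcl2a1a, chr9:89199081-89199164 on the plus strand for Bcl2a1b and chr9:88731915-88731998 on the minus strand for Bcl2a1d:
Bcl2a1a: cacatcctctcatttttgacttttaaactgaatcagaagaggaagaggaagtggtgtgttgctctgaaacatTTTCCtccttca
Bcl2a1b: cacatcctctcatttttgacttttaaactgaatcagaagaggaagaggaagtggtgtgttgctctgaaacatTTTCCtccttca
Bcl2a1d: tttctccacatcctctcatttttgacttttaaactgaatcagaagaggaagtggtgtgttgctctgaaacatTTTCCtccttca
Bcl2a1a and Bcl2a1b are identical over these 84 bases. GGAAA is present in 55.6% of all 32851 RefSeq windows, so its presence is common. RefSeq windows were matched for 9 of the 10 members, 12 windows in all, and GGAAA was in 10 of them, covering 8 members and leaving out Bcl2l11. The ISRE (GAAA, any 2 bases, GAAA; 3.0% of all windows) was in none of the 12. The κB consensus (7.3%) was found in 1 window of Bcl2l1, at bases -242 to -233 from the start, and the p53 half-site (7.1%) in the window of Bax, at bases -201 to -192.

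By the reads counted, Mcl1 was the most abundant of the 10 transcripts per length, and Bcl2 the least abundant, in all 4 conditions. The order of the A1 genes against the others, Mcl1 included, is uncertain, since reads shared among them may not have been counted. Levels between genes are given as CPM per kb of exon (GENCODE vM21), the only scale on which they are compared here. Without stimulus at 6 h the median over 4 libraries was 318.5 CPM per kb for Mcl1, followed by Bcl2a1d at 51.9 and Bax at 48.7, whose ranges overlapped, and Pmaip1 at 40.2. Bcl2a1a at 24.0, Bak1 at 22.8 and Bcl2a1b at 19.6 CPM per kb did not differ beyond their spread, and Bcl2l11 at 10.8, Bcl2l1 at 3.21 and Bcl2 at 0.612 CPM per kb closed the order without overlap. With stimulus at 6 h the 3 A1 genes stood next to Mcl1, at 238 (Bcl2a1d), 160.4 (Bcl2a1a) and 155 (Bcl2a1b) CPM per kb with neighbouring ranges that overlapped, against 460.2 CPM per kb for Mcl1, and Bax had moved below Bak1 (29.8 against 90.3). At 24 h with stimulus, Bcl2a1a at 106 and Bax at 104 CPM per kb came after Mcl1 at 339.8 CPM per kb and overlapped, followed by Bak1 at 76.5 and Bcl2a1d at 72.1, which also overlapped. Without stimulus at 24 h, Bax at 50.8 CPM per kb was second to Mcl1 at 257, and Bcl2a1a, at 7.29, was among the 3 lowest medians.

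**Figure D1:**
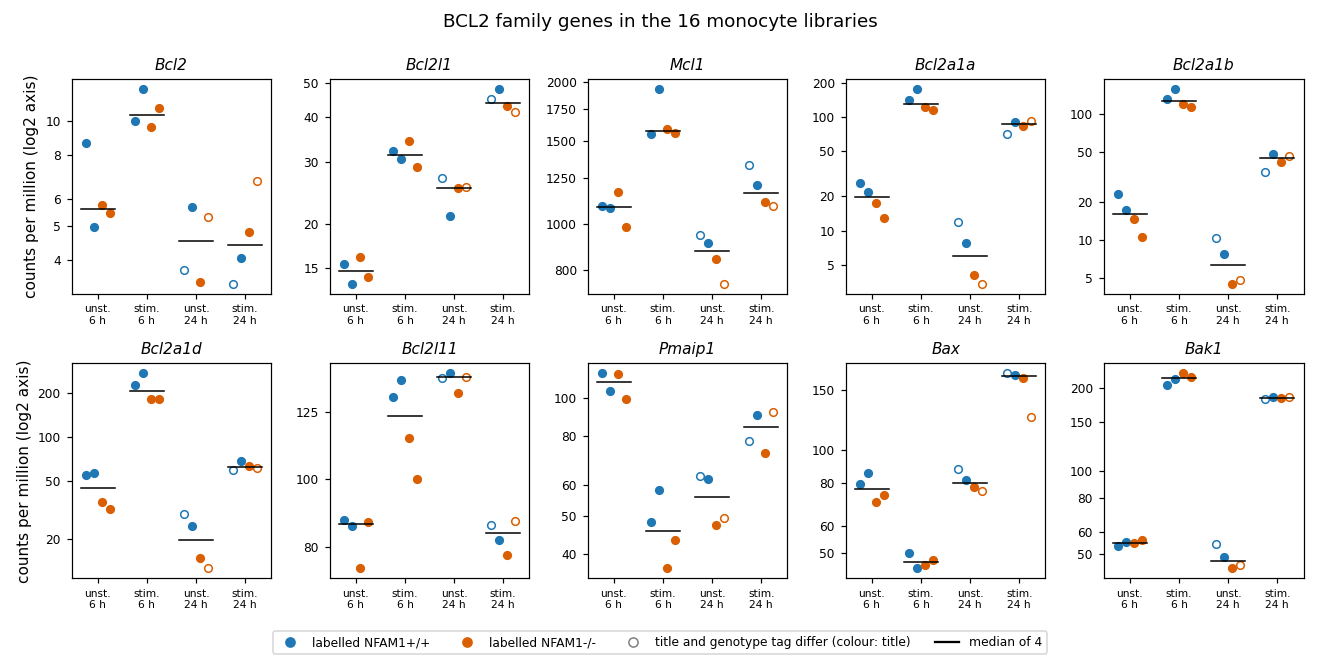
CPM of the 10 genes on a log2 axis, 1 point per library, in the 4 conditions (unst., unstimulated; stim., IFN-γ plus MegaCD40L) with the median of 4 as a line. Blue and orange follow the title, and open points are the 4 libraries at 24 h whose tag names the other genotype; the A1 genes and Bak1 are higher with stimulus at both times, while Bcl2l11, Pmaip1 and Bax change direction between 6 and 24 h (on the deposited scaling; Bcl2l11 at 6 h turns to -0.20 with own totals of reads as sizes).

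At 6 h IFN-γ plus MegaCD40L raised 8 of the 10 genes and lowered 2, Pmaip1 and Bax, all past limma's test (adjusted p under 0.05 over all genes). Of all genes tested, 78.3% passed, 35% higher and 43.3% lower, so passing alone is no result about these genes. Likewise, the libraries of the 2 conditions did not overlap for all 10, nor for 71.9% of all genes. The median difference was 0.96 on the log2 scale for the 10 and -0.13 for all genes. At 24 h 8 of the 10 rose, 1 fell (Bcl2l11) and Bcl2 did not pass, against 74.8% of all genes passing, 38.3% higher and 36.5% lower, and the libraries did not overlap for 9 of the 10 and 68.9% of all genes. A change of at least 2-fold was reached by 6 of the 10 at 6 h and 4 at 24 h, against 39.7% and 33.3% of all genes. The deposited values depend on a scaling that differs by stimulus: at 6 h the reads of a library over its scaled size were 0.756 to 0.775 without and 1.241 to 1.316 with stimulus, and at 24 h they were 0.776 to 0.788 and 0.970 to 0.997. With each library scaled instead to its total of reads (own totals), the median over all genes moved to -0.87 at 6 h and -0.34 at 24 h, and the share of higher genes among those passing went from 44.7% to 21.1% at 6 h and from 51.2% to 31.3% at 24 h. Directions that turned under another scaling are named with each gene.

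The A1 paralogs, which encode a guardian of mitochondria in myeloid cells, rose most of the 10 at 6 h, while at 24 h Bcl2a1a and Bcl2a1b rose most and Bak1 (1.94) stood above Bcl2a1d (1.73). Bcl2a1a at 6 h was 26.0 and 21.7 CPM (labelled NFAM1+/+) and 17.6 and 13 CPM (labelled NFAM1-/-) without stimulus, and 141, 179, 122 and 115 CPM with it. The lowest stimulated library was several times above the highest unstimulated one. The difference was 2.85 on the log2 scale (SE 0.14, 7.22-fold, adjusted p = 2.02e-10, 4 against 4 libraries). At 24 h Bcl2a1a was 12.0, 7.85, 4.09 and 3.40 CPM without and 71.3, 90.1, 83.9 and 92.4 CPM with stimulus, a difference of 3.80 (SE 0.14, 13.96-fold, adjusted p = 1.16e-11). Every stimulated library again lay above every unstimulated one. Bcl2a1b rose by 3.05 (SE 0.14) at 6 h, from 10.5 to 23.0 CPM to 114 to 160.3 CPM, and by 2.73 (SE 0.14) at 24 h, from 4.46 to 10.3 CPM to 34.5 to 48.6 CPM. Bcl2a1d rose by 2.31 (SE 0.08) at 6 h, from 31.9 to 56.3 CPM to 181 to 273 CPM, and by 1.73 (SE 0.08) at 24 h, from 12.5 to 29.3 CPM to 58.8 to 68.7 CPM. With the reads of the 3 rows summed, the rise was 2.63 (SE 0.10, 6.17-fold, adjusted p = 1.16e-11) at 6 h and 2.59 (SE 0.10, 6.01-fold, adjusted p = 1.82e-11) at 24 h. These directions held under own-total scaling and quantile normalization.

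Among the other survival genes, Bcl2l1 rose at both times. Its range went from 13.5 to 16.1 CPM to 28.9 to 34.4 CPM at 6 h (log2 difference 1.09, SE 0.09, adjusted p = 4.18e-08), and from 21.0 to 27.0 CPM to 41.5 to 48.3 CPM at 24 h (0.85, SE 0.09, adjusted p = 7.25e-07). Mcl1, a guardian with a short-lived protein, was 1093, 1084, 1170 and 987 CPM without and 1554, 1934, 1586 and 1560 CPM with stimulus at 6 h, and the libraries did not overlap. Its difference was 0.61 (SE 0.08, adjusted p = 4.79e-06) on the deposited scaling but -0.12 with own totals and -0.57 with quantile normalization, so the direction of Mcl1 at 6 h rests on the scaling. At 24 h Mcl1 was 951, 914, 843 and 748 CPM without and 1335, 1207, 1116 and 1090 CPM with stimulus (0.46, SE 0.08, adjusted p = 8.80e-05; 0.13 with own totals and -0.12 with quantile normalization). Bcl2 rose by 0.82 at 6 h (SE 0.21, adjusted p = 0.00243), from 4.98 to 8.69 CPM to 9.67 to 12.4 CPM, a change of 0.09 with own totals that did not pass. At 24 h Bcl2 was 3.46 to 5.68 CPM without and 3.42 to 6.75 CPM with stimulus, which overlapped (0.05, SE 0.21, adjusted p = 0.832), and the sign turned with own totals (-0.28).

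The BH3-only genes moved in opposite directions at the 2 times. Bcl2l11, which encodes the death activator BIM, was 87.6, 85.7, 74.6 and 87.0 CPM without and 131, 139, 115 and 100.2 CPM with stimulus at 6 h. All stimulated libraries lay above all unstimulated ones, a difference of 0.53 (SE 0.06, adjusted p = 2.51e-06), which was -0.20 with own totals, where it passed in the other direction (adjusted p = 0.00727), and 0.11 with quantile normalization, where it did not pass. At 24 h Bcl2l11 was 139.8, 142, 133 and 140.2 CPM without and 86.0, 81.9, 77.9 and 87.3 CPM with stimulus, a fall that held under both other scalings (-0.74, SE 0.06, 1.67-fold, adjusted p = 8.36e-08). Pmaip1, which encodes the MCL1 antagonist NOXA, was 115.5, 104, 115 and 99.2 CPM without and 48.3, 58.2, 36.7 and 43.4 CPM with stimulus at 6 h, a fall of 2.36-fold (-1.24, SE 0.09, adjusted p = 1.76e-08). At 24 h Pmaip1 was 63.3, 62.0, 47.5 and 49.4 CPM without and 77.8, 90.6, 72.4 and 91.8 CPM with stimulus, higher in every stimulated library (0.59, SE 0.09, 1.5-fold, adjusted p = 4.85e-05). Both directions of Pmaip1 held under the other scalings.

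The pore-forming effectors responded differently. Bak1 was 53.5, 55.0, 54.7 and 56.0 CPM without and 204.5, 215, 226 and 219.5 CPM with stimulus at 6 h, 3.95-fold higher (1.98, SE 0.05, adjusted p = 5.31e-14). At 24 h it was 54.4, 48.5, 44.2 and 45.7 CPM without and 182, 186, 183 and 185 CPM with stimulus (1.94, SE 0.05, 3.83-fold, adjusted p = 1.24e-13). The spread among stimulated libraries was small at both times. Bax was 79.9, 85.8, 70.5 and 73.7 CPM without and 49.8, 45.0, 46.2 and 47.8 CPM with stimulus at 6 h, a fall that left no overlap (-0.71, SE 0.07, 1.64-fold, adjusted p = 4.86e-07). At 24 h Bax was 88.2, 82.1, 77.9 and 75.8 CPM without and 168, 166, 163 and 125 CPM with stimulus (0.93, SE 0.07, 1.91-fold, adjusted p = 3.11e-08). Library 58, which is among those with differing labels, was the lowest of the stimulated ones but still above all unstimulated ones. The directions of Bak1 and Bax held under the other scalings.

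**Figure D2:**
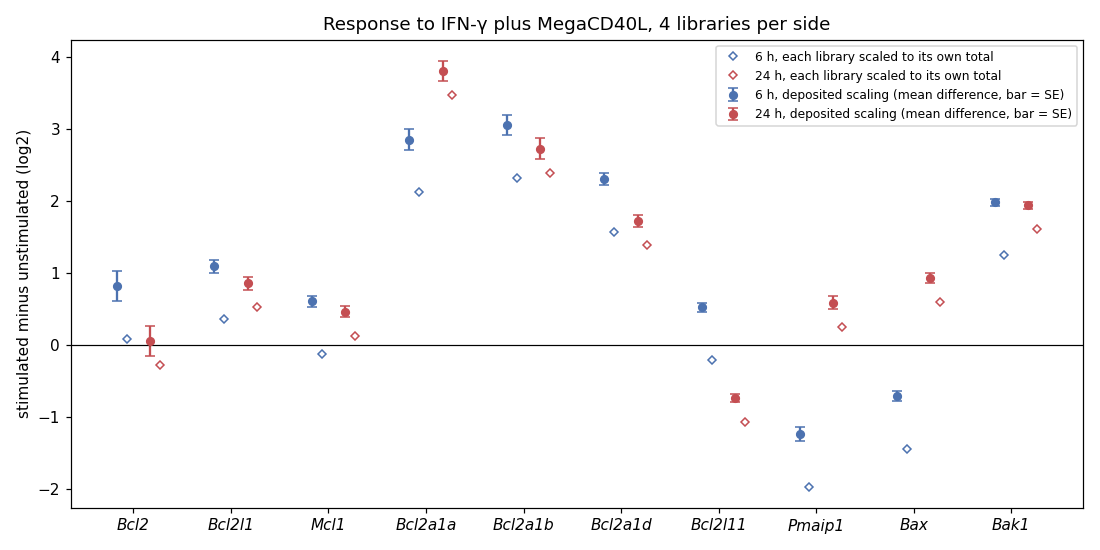
Log2 difference between stimulated and unstimulated libraries (4 against 4) for the 10 genes at 6 h (blue) and 24 h (red). Filled circles with SE bars are limma's estimates on the deposited values and open diamonds the same with own totals of reads as sizes, which puts Mcl1 (-0.12) and Bcl2l11 (-0.20) below 0 at 6 h and Bcl2 (-0.28) below 0 at 24 h; Pmaip1 and Bax are below 0 at 6 h and above 0 at 24 h on both scalings.

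The difference between the responses at 24 h and 6 h was tested as an interaction. It passed for 6 of the 10 genes, 3 higher (35.2% of all genes) and 3 lower (32%), against 67.2% of all genes in either direction. With own totals the median over all genes went from 0.04 to 0.44 and the share of higher genes among those passing from 52.4% to 70.1%. The difference was 1.82 (SE 0.13, adjusted p = 3.87e-08) for Pmaip1, 1.65 (SE 0.10, adjusted p = 1.03e-08) for Bax and 0.95 (SE 0.20, adjusted p = 0.000828) for Bcl2a1a, each higher at 24 h. It was -1.26 (SE 0.09, adjusted p = 3.00e-08) for Bcl2l11, -0.77 (SE 0.29, adjusted p = 0.0327) for Bcl2 and -0.58 (SE 0.12, adjusted p = 0.000588) for Bcl2a1d, each lower at 24 h. Leaving out a library kept the sign of all 6, but Bcl2 lost its call in 8 of the 16 cases, and did not pass with own totals (-0.37), and Bcl2a1d did not pass with own totals (-0.18), with quantile normalization (-0.14) or in the fit by the tag. A fall at 6 h and a rise at 24 h, both passing, was found for 7.74% of all genes and is the pattern of Pmaip1 and Bax. A rise and then a fall was found for 5.1% and is the pattern of Bcl2l11 on the deposited scaling. For the A1 genes together the difference between the times did not pass (summed reads, -0.04, SE 0.14, adjusted p = 0.832). Bcl2a1a and Bcl2a1d, which share reads, differed in opposite directions. The summed value is given on the deposited scaling only, and own totals moved Bcl2a1d from -0.58 to -0.18.

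Time in culture also moved the genes. Without stimulus 8 of the 10 passed between 6 and 24 h (64.4% of all genes), 2 higher (34.3% of all genes) and 6 lower (30.1%). The A1 genes fell most, by 1.66 (SE 0.14) on the log2 scale for Bcl2a1a, 1.29 (SE 0.14) for Bcl2a1b and 1.18 (SE 0.08) for Bcl2a1d, and Pmaip1 fell by 0.98 (SE 0.09). Bcl2l1 rose by 0.74 (SE 0.09) and Bcl2l11 by 0.73 (SE 0.06), with no overlap of libraries. Mcl1 fell by 0.33 (SE 0.08) and Bak1 by 0.19 (SE 0.05), and Bcl2 (-0.45, SE 0.21) and Bax (0.07, SE 0.07) did not pass. With stimulus all 10 passed (76.4% of all genes), 3 higher (39.7%) and 7 lower (36.7%). With own totals the median over all genes went from 0.04 to 0.42 and the share of higher genes among those passing from 52.0% to 69.5%. Bax rose by 1.71 (SE 0.07), Pmaip1 by 0.85 (SE 0.09) and Bcl2l1 by 0.50 (SE 0.09). Bcl2a1d fell by 1.76 (SE 0.08), Bcl2a1b by 1.62 (SE 0.14), Bcl2 by 1.22 (SE 0.21), Bcl2a1a by 0.71 (SE 0.14), Bcl2l11 by 0.53 (SE 0.06), Mcl1 by 0.48 (SE 0.08; 0.04 higher with quantile normalization) and Bak1 by 0.23 (SE 0.05; 0.14 higher with own totals and with quantile normalization). Cells at 6 and 24 h were separate libraries, and the neutrophil marker sum without stimulus rose between these times, as given above.

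A difference of log2 CPM between a survival gene and a partner that its protein binds, taken within a library, does not depend on the size by which the library is scaled, although quantile normalization can change it. It is given as a description with no test, and, since lengths differ between genes, only its change is read. Bcl2l1 minus Bax changed by 1.81 with stimulus at 6 h, from -2.67 to -2.13 without to -0.73 to -0.43 with stimulus, and by -0.08 at 24 h, where the libraries overlapped (2.07 and 0.07 with quantile normalization). Mcl1 minus Pmaip1 behaved the same way, changing by 1.85 at 6 h with no overlap and by -0.13 at 24 h with overlap (0.88 and -0.54 with quantile normalization, neither overlapping). Mcl1 minus Bcl2l11 did the opposite: it changed by 0.08 at 6 h, with overlap, and by 1.20 at 24 h, from 2.42 to 2.77 to 3.64 to 3.96, while with quantile normalization it changed by -0.69 at 6 h and 0.92 at 24 h, neither overlapping. Bcl2l1 minus Bak1 was lower with stimulus at both times (-0.89 and -1.08, no overlap). Summed A1 reads rose against both BH3-only genes at both times, by 2.10 and 3.32 against Bcl2l11 and by 3.86 and 2.00 against Pmaip1, in every case without overlap. Bcl2 minus Bcl2l11 overlapped at both times (0.29 and 0.79), but not with quantile normalization (0.96 and 1.37). These values concern RNA, and protein was not measured here.

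**Figure D3:**
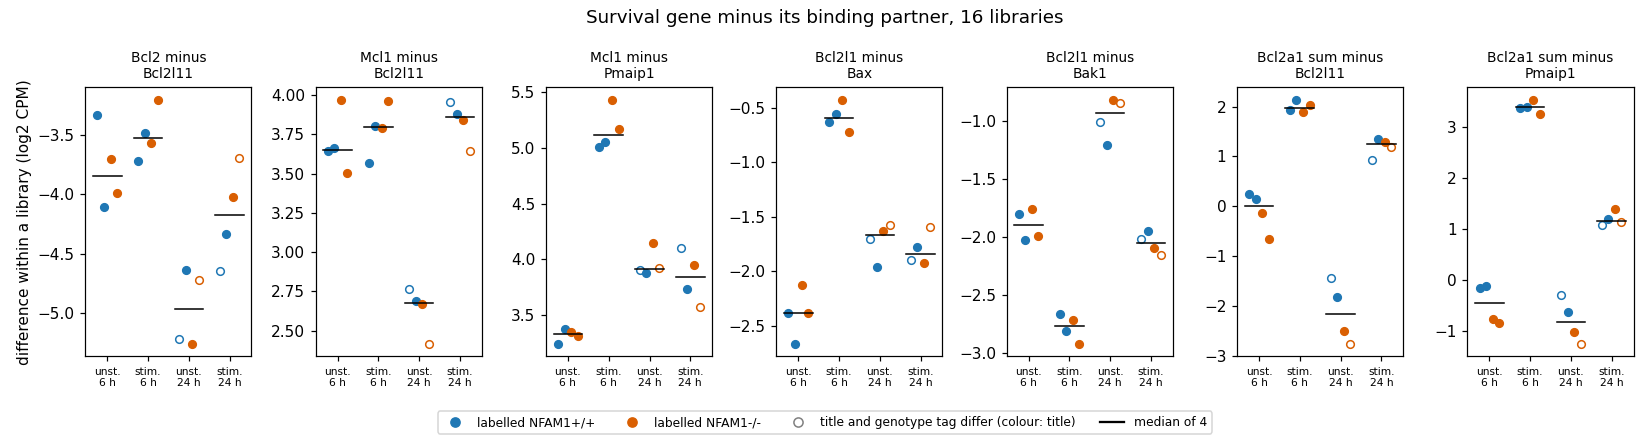
Difference of log2 CPM between a survival gene and a partner within each of the 16 libraries, by condition, with the median of 4 as a line and open points for the libraries whose title and tag differ. Bcl2l1 minus Bax and Mcl1 minus Pmaip1 separate stimulated from unstimulated libraries at 6 h and overlap at 24 h, while Mcl1 minus Bcl2l11 overlaps at 6 h and separates at 24 h, on the deposited scaling; with quantile normalization Mcl1 minus Pmaip1 also separates at 24 h (-0.54) and Mcl1 minus Bcl2l11 at 6 h (-0.69).

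Between genotypes the members that passed a test were A1 paralogs, lower in libraries labelled NFAM1-/-, and none of their calls held under every alternative. In unstimulated cells at 6 h, Bcl2a1d was 54.2 and 56.3 CPM where the label was NFAM1+/+ and 35.4 and 31.9 CPM where it was NFAM1-/- (-0.72, SE 0.12, adjusted p = 0.0273). It was the 1 member of 10 that passed, against 0.156% of all genes (20). Bcl2a1a was 26.0 and 21.7 against 17.6 and 13 CPM (-0.65, SE 0.20, adjusted p = 0.261), and Bcl2a1b 23.0 and 17.3 against 14.7 and 10.5 CPM (-0.69, SE 0.20, adjusted p = 0.232). In both genes the labelled genotypes did not overlap, as was the case for 42.2% of all genes. Without any 1 of the 4 libraries the call of Bcl2a1d was lost, with differences between -0.79 and -0.64, and it was also lost when the spread was estimated with the tag's genotypes at 24 h. In stimulated cells at 6 h no member passed, nor did any of all genes tested with limma (14.6% at an unadjusted p under 0.05; 1 gene with voom weights). Bcl2a1d was 228 and 273 against 183 and 181 CPM (-0.46, SE 0.12, adjusted p = 0.147), Bcl2a1a 141 and 179 against 122 and 115 CPM (-0.42, SE 0.20, adjusted p = 0.355) and Bcl2a1b 133 and 160.3 against 120.3 and 114 CPM (-0.32, SE 0.20, adjusted p = 0.495). Of the 3 members at an unadjusted p under 0.05, the others beside Bcl2a1d were the BH3-only genes Bcl2l11 (131 and 139 against 115 and 100.2 CPM, -0.33, SE 0.09, adjusted p = 0.155) and Pmaip1 (48.3 and 58.2 against 36.7 and 43.4 CPM, -0.41, SE 0.13, adjusted p = 0.208). Without library 10, library 26 was alone in its NFAM1+/+ group, and the spread was taken from the other groups. The differences were then -0.59 for Bcl2a1d and -0.55 for Pmaip1. Library 26 was the higher of the 2 for both genes, so these larger differences rest on that library. Over both stimuli at 6 h Bcl2a1d passed (-0.59, SE 0.08, adjusted p = 0.0173; 0.383% of all genes), as did the summed reads (-0.55, SE 0.10, adjusted p = 0.0382). Without library 4, 11 or 12 the call of Bcl2a1d over both stimuli was lost (-0.55, -0.59 and -0.58). Without library 10, which again left library 26 alone in its group, the Bcl2a1a difference was -0.62. The effect did not pass as different between stimulated and unstimulated cells at 6 h for any member (0% of all genes; 8.53% at an unadjusted p under 0.05, no member among them; 0 genes with voom weights; 196 genes, 1.54%, and no member without library 10).

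At 24 h the answer turned on which label was used. By title, unstimulated Bcl2a1a was 12.0 and 7.85 CPM (libraries 44 and 45) against 4.09 and 3.40 CPM (libraries 43 and 46), a difference of -1.38 (SE 0.20, adjusted p = 0.00626). Bcl2a1b was 10.3 and 7.75 against 4.46 and 4.8 CPM (-0.95, SE 0.20, adjusted p = 0.0427) and Bcl2a1d 29.3 and 24.2 against 14.7 and 12.5 CPM (-0.98, SE 0.12, adjusted p = 0.00302). These 3 were the members that passed, against 0.954% of all genes, and the summed reads gave -1.05 (SE 0.14, adjusted p = 0.00540). With the voom weights that the study used, the call of Bcl2a1d held, and those of Bcl2a1a (adjusted p = 0.0513) and Bcl2a1b (adjusted p = 0.185) were lost, while 1.82% of all genes passed. By the tag, the differences were 0.44 (SE 0.42), 0.16 (SE 0.32) and 0.26 (SE 0.29), none of which passed (0.0156% of all genes did), and the summed reads gave 0.27 (SE 0.32). Without the 4 libraries, 1 library was left in each group, and its spread was taken from the other groups. The differences were then -0.94 (SE 0.23, adjusted p = 0.382), -0.80 (SE 0.26, adjusted p = 0.697) and -0.72 (SE 0.14, adjusted p = 0.193), in the direction of the title, and the summed reads gave -0.77 (SE 0.17, adjusted p = 0.255). The neutrophil marker sum by title was 1221 and 1123 CPM in these libraries labelled NFAM1+/+ and 1668 and 1430 CPM in those labelled NFAM1-/-, and the dendritic cell sum 230.4 and 214 against 308 and 359 CPM. The B cell sum (141 and 134.5 against 204 and 208.5 CPM) and the NK cell gene Klrd1 (15.6 and 13.4 against 19.9 and 21.0 CPM) were also higher in those labelled NFAM1-/-, opposite to the A1 genes, and the monocyte sum (30260 and 30050 against 28170 and 26260 CPM) was lower, as the A1 genes were. The part of these cells was not tested. Leaving out any 1 of the 4 libraries in the fit by title left calls for Bcl2a1d in each case, between -1.11 and -0.84, and for Bcl2a1a without library 43 or 45. In stimulated cells at 24 h no member passed (2.1% of all genes did by title, 0.0235% by the tag and 0.111% without the 4 libraries), and the A1 differences by title were 0.14, 0.12 and -0.03 (SE 0.20, 0.20 and 0.12). Without library 55, library 58 was alone in its group, and the Bax difference was -0.42. Library 58 stood apart as the lowest stimulated library for Bax, and its labels differ. The A1 differences were -0.24, -0.33 and -0.09 by the tag and -0.10, -0.21 and -0.12 without the 4 libraries. The difference of the genotype effect between stimulated and unstimulated cells at 24 h, a comparison added after seeing the data, was by title 1.51 (SE 0.28, adjusted p = 0.0373) for Bcl2a1a and 0.95 (SE 0.17, adjusted p = 0.0308) for Bcl2a1d, with 0.54% of all genes passing. No member passed by the tag or without the 4 libraries. The remaining 7 members passed in no genotype comparison at either time under the title. In simulated data, 7.53% of genes with a genotype change of 0.5 in unstimulated cells at 6 h were recovered, so small differences could be missed.

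**Figure D4:**
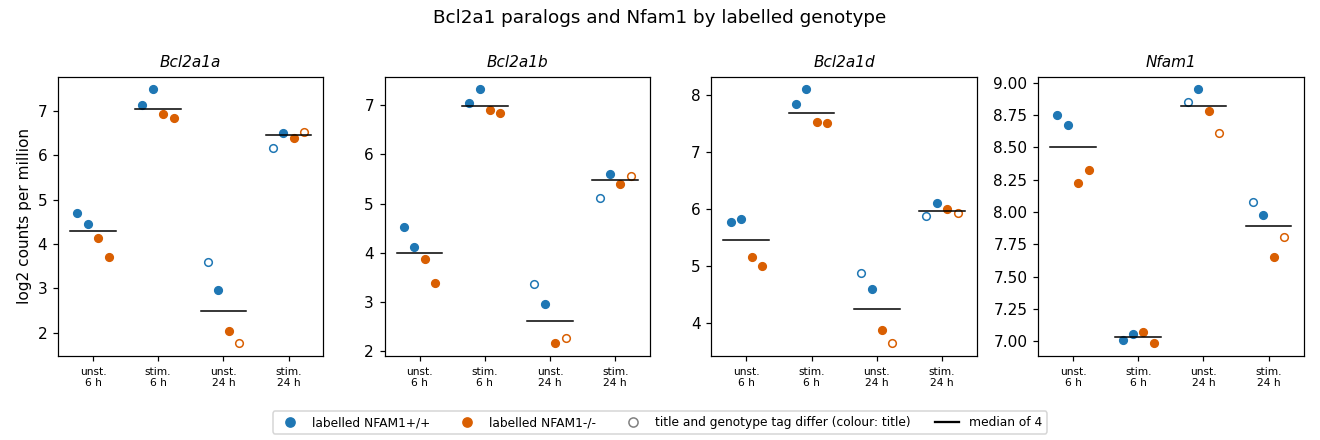
Log2 CPM of the A1 paralogs and of Nfam1 in each library, blue for libraries titled NFAM1+/+ and orange for NFAM1-/-, with open points where the tag names the other genotype and lines at the median of 4. In unstimulated cells at 6 h both orange points lie below both blue points for all 4 genes. At 6 h the 2 genotypes did not overlap, in either direction, for 42.2% of all genes, so such a separation is common. At 24 h exchanging the open points by their tag mixes the 2 genotypes.

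The 4 lists of other genes of the pathway were read in the same fit as the members. Of all genes, 35% passed higher and 43.3% lower at 6 h, and 38.3% and 36.5% at 24 h. The counts and values of the lists are on the deposited scaling only. With own totals the median over all genes moved to -0.87 at 6 h and -0.34 at 24 h, so the direction of small changes in the lists is uncertain. Of the other BCL2 family members, 11 of 15 were tested, of which 5 rose and 5 fell at 6 h and 6 rose and 2 fell at 24 h (median -0.18 and 0.37, against -0.13 and 0.01 for all genes). Bcl2l14, a family member of weakly defined function, rose by 6.59 (SE 0.25) and 5.95 (SE 0.25), and Bcl2a1c, a further A1 paralog, by 2.44 and 2.33 (SE 0.54). Without stimulus Bcl2l14 was near the floor, with a mean log2 CPM of -1.125 at 6 h and 0.301 at 24 h, so the size of its rise is uncertain. Bcl2a1c was near the floor, with a mean log2 CPM of -1.54 without and 0.91 with stimulus at 6 h, and -2.87 and -0.54 at 24 h. Bmf, a BH3-only gene, fell by 3.87 and by 3.10 (SE 0.13), Bnip3l, a mitophagy receptor, by 2.37 (SE 0.06) at 6 h, and Bcl2l12 by 2.14 (SE 0.15) at 6 h. Bcl2l12 fell to near the floor there, a mean log2 CPM of -0.242. Of the apoptosome and caspase genes all 15 were tested, of which 10 rose and 5 fell at 6 h (median 1.09), and 7 rose and 4 fell at 24 h (median 0.06). Cycs, which encodes cytochrome c, rose by 1.80 and 1.62 (SE 0.07). Casp6 fell by 1.14 and by 1.39 (SE 0.14), Endog by 1.26 (SE 0.34) at 6 h and Aifm1 by 1.10 (SE 0.08) at 6 h. Endog was near the floor there, with a mean log2 CPM of -0.60 without and -1.86 with stimulus. Of p53 and its targets, 11 of 13 were tested, of which 5 rose and 4 fell at 6 h (median 0.54) and 7 rose and 2 fell at 24 h (median 1.45). Bax and Pmaip1 are themselves known p53 targets. The cell-cycle inhibitor Cdkn1a rose by 3.39 and 3.87 (SE 0.07), Fas, a death receptor, by 1.98 and 2.65 (SE 0.07), and Mdm2, which degrades p53, by 2.12 and 2.11 (SE 0.11). Phlda3 went from -1.79 at 6 h to 4.07 at 24 h (SE 0.34), in the same order of directions as Bax and Pmaip1, unlike the 3 genes just named. At 6 h Phlda3 was near the floor, with a mean log2 CPM of 0.18 without and -1.61 with stimulus. Without stimulus at 24 h it was also near the floor, at 0.007. Trp53 itself fell by 1.23 (SE 0.05) at 6 h, and Zmat3 by 1.09 and by 1.05 (SE 0.16). Of 8 genes for the turnover of MCL1 and BIM, 7 were tested, 3 rose and 3 fell at each time, and none reached 2-fold. No gene of these 4 lists passed in a genotype comparison.

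The genes whose log2 CPM followed each member most closely over the 16 libraries are given as a description. The libraries fall into 4 conditions, which set most of these correlations. They were taken on the deposited scaling only, on which the directions of Mcl1 and Bcl2l11 at 6 h rest. Bak1 was followed by Tspo, Upp1 and Serpina3g, each with Pearson r = 0.997, and 9.57% of all genes had r above 0.9 with it. Bcl2a1b was followed by Spred1 (0.992), Tnf (0.991) and Cd47 (0.986), Bcl2a1d by Rab10 (0.989), Tnf (0.985) and Dusp2 (0.984), and Bcl2a1a by Marcksl1 (0.987), Fam49a and M6pr (both 0.986), with 4.32% to 6.6% of genes above 0.9. Bcl2l1 was followed by Kcna2 and Unc13d (both 0.980), Bax by Ubxn6 (0.984), Tmem222 (0.981) and Yrdc (0.980), and Mcl1 by Plekho2 (0.975), Cybb (0.970) and Lrp10 (0.966). The BH3-only genes had few close followers: Zfand5 (0.939), Egr3 (0.938) and Clcf1 (0.920) for Bcl2l11, with 0.0469% of genes above 0.9, and Tnfrsf8 (0.936), Opa3 (0.931) and Hspa13 (0.927) for Pmaip1, with 0.0861%. Bcl2 was followed by Cep85l (0.953), Capza1 (0.917) and 2310043P16Rik (0.916). Among the members, r was 0.929 to 0.979 between the A1 paralogs, which share reads, 0.894 to 0.963 between Mcl1 and the A1 paralogs, and -0.725 between Bcl2l11 and Pmaip1.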

How the data were processed

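RNA of 16 mouse monocyte libraries was measured. The authors aligned 101-base paired reads of non-stranded poly-A libraries with STAR, counted them with Rsubread and normalized with edgeR. The submitters' processing notes also name FastQC, limma and the builds GRCm39 and mm39, while versions and annotation are not given in the sources used here. The deposited values are log2 CPM, each read number plus 0.5 divided by a scaled size of the library. Reads recovered from them were whole for 100% of values (tolerance 0.05), with 48295939 to 88514341 reads per library. Of the symbols, 17 had been turned into dates and 1 occurs repeatedly.

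The deposited values were fitted with limma 3.58.1 in R 4.3.3 (variance trend, 8 groups by title, 16 libraries, 8 residual degrees of freedom), for 12782 genes that reached 1 CPM in 2 or more libraries (303 left out), with two-sided tests and Benjamini-Hochberg adjustment over all genes. The study used voom weights and a 2-fold minimum, which are alternatives here. The fit was tested on simulated data (dispersion 0.02). For the genotype in unstimulated cells at 6 h, it recovered 7.53% of genes changed by 0.5 on the log2 scale and 87.9% of those changed by 1. For the stimulus at 6 h it recovered 48.6% and 100%. A genotype difference near 0.5 that did not pass is therefore not shown to be absent. The genes and lists were chosen with earlier results of these data known. Of the 4 other lists, up to 3 rises and 3 falls past 2-fold were named. Some genes that these rules name, and a motif that was searched, are not reported here. Alternatives were no filter, another pseudocount, 2 other scalings, voom weights, fewer libraries, the genotype tag, summed A1 reads, a 2-fold minimum and leaving out each library. Positions and transcripts are GENCODE vM21 (GRCm38) and upstream sequences RefSeq (GRCm38.p6), which may not match the authors' annotation.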

Additional observations from a re-analysis of the deposited data

Results flagged for a closer look

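The difference between the responses at 24 h and 6 h passed for 6 of the 10 genes, against 67.2% of all genes. Its log2 values (24 h minus 6 h) were Pmaip1 1.82, Bax 1.65, Bcl2a1a 0.95, Bcl2a1d -0.58, Bcl2 -0.77 and Bcl2l11 -1.26. Bcl2 and Bcl2a1d did not pass with own totals. By title, the genotype effect at 24 h differed between stimulated and unstimulated cells for Bcl2a1a (1.51) and Bcl2a1d (0.95), with 0.54% of all genes passing. That comparison was added after seeing the data, and by the tag neither gene passed.

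In 3 of 40 sets of 4 libraries of a condition, 1 library stood apart from the others, measured as its gap to the nearest over the range of the 4. Chance gives about 1 in 20 such sets. Each set holds both labelled genotypes. Mcl1 in stimulated cells at 6 h was 10.92 on the log2 CPM scale in library 26, labelled NFAM1+/+, against 10.60 to 10.63 in the others (0.908 of the range). Bax in stimulated cells at 24 h was 6.97 in library 58, whose labels differ, against 7.35 to 7.39 (0.895). Bcl2l11 in unstimulated cells at 6 h was 6.22 in library 3, labelled NFAM1-/-, against 6.42 to 6.45 (0.868).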

How the results depend on the processing

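No paired analysis was possible because the library numbers in the labels are unique and no number is shared between groups. Scaling was the choice that turned most directions. With own totals the log2 differences with a turned sign were -0.20 (Bcl2l11) and -0.12 (Mcl1) for the stimulus at 6 h, -0.28 (Bcl2) for the stimulus at 24 h, 0.07 (Bcl2a1b), 0.16 (Bcl2l1), 0.25 (Mcl1) and 0.35 (Bak1) for the stimulus by time, 0.14 (Bak1) for time in stimulated cells and 0.0031 (Bcl2a1d) for the genotype in stimulated cells at 24 h. With quantile normalization they were -0.57 and -0.12 (Mcl1, stimulus at 6 and 24 h), 0.018 (Bcl2a1b), 0.45 (Mcl1) and 0.31 (Bak1) for the stimulus by time, and 0.042 (Mcl1) and 0.14 (Bak1) for time in stimulated cells. By the genotype tag the A1 differences at 24 h turned to 0.44, 0.16 and 0.26 without stimulus and to -0.24 (Bcl2a1a) and -0.33 (Bcl2a1b) with it. Without the 4 libraries with differing labels they turned to -0.10 (Bcl2a1a) and -0.21 (Bcl2a1b) with stimulus, and Bcl2 for the stimulus at 24 h to -0.005 and Bak1 for the stimulus by time to 0.015.

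Counts of members passing fell with a 2-fold minimum to 6 (stimulus at 6 h), 4 (stimulus at 24 h), 3 (stimulus by time), 3 (time in unstimulated cells), 4 (time in stimulated cells), 0 (genotype in unstimulated cells at 6 h), 0 (genotype over both stimuli at 6 h) and 1 (genotype in unstimulated cells at 24 h). By the tag 0 passed in each of these 3 genotype comparisons, and without the 4 libraries 0 passed in unstimulated cells at 24 h. With voom weights 1 passed there (Bcl2a1d; 232 genes in all). With the A1 rows summed, 5 of the other 7 passed for time in unstimulated cells and 0 in the 3 genotype comparisons, since the members that had passed were in the sum. Leaving out each library gave counts of 10 to 10 (stimulus at 6 h), 9 to 9 (stimulus at 24 h), 5 to 7 (stimulus by time), 8 to 9 (time in unstimulated cells) and 10 to 10 (time in stimulated cells). In a genotype comparison, leaving out a library left 1 library in its group, so no counts are given for these comparisons. Leaving out a library also gave ranges that crossed 0 for Bcl2 under stimulus at 24 h (-0.10 to 0.21) and for the genotype in stimulated cells at 24 h (Bcl2a1a -0.032 to 0.30, Bcl2a1b -0.13 to 0.36, Bcl2a1d -0.14 to 0.081). The changes of differences within a library moved by less than 1 SD with a pseudocount of 1 CPM and without each library. With quantile normalization, added after seeing the data, they moved further for Bcl2 minus Bcl2l11 (0.96 at 6 h and 1.37 at 24 h), Mcl1 minus Bcl2l11 (-0.69 and 0.92), Mcl1 minus Pmaip1 (0.88 and -0.54), and at 6 h Bcl2l1 minus Bax (2.07), Bcl2l1 minus Bak1 (-0.30) and summed A1 minus Pmaip1 (3.38). The cause of these differences was not tested.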
